A study of Homo sapiens with 2 samples.

Results

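The chromatin contacts around CXCR4 were taken from 1 list of TCF3::HLF-HiChIP interactions in the B cell leukemia line HAL-01. An interaction belonged to the CXCR4 region when either of its 5-kb bins lay within 100 kb of the annotated CXCR4 body, and 74 of 49245 listed interactions did (0.15%). They were chosen by position, and 1 pair of bins in the region had been singled out for its listed contacts, so the counts below are descriptions and carry no test. The region was proposed as contacts with a downstream enhancer, but CXCR4 is read from the minus strand and both bins of that pair lie upstream of its start. The list holds no histone marks, so whether any bin is an enhancer was not tested, and the bins are named here by position. The paper annotated its called interactions with histone marks and enhancer calls, which were not used here.

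HiChIP joins DNA ends that lie close together in the nucleus and enriches, with an antibody, the ends bound by a chosen protein. According to the labels, the cells carried the translocation t(17;19), which makes the TCF3::HLF fusion, together with Cas9GFP and a knockout of wild-type TCF3, and the antibody was against E2A, another name for the TCF3 protein. Both samples are replicates of this single condition, so the design has no control group, and the knockout line was grown from diluted cells after transduction, which limits it to 1 derived line. The authors merged the replicates before calling, and the spread between them therefore cannot be given for any value below.

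CXCR4 encodes the receptor for the chemokine CXCL12, which is secreted by stromal cells of the bone marrow. The receptor signals through inhibitory G proteins, is desensitized by receptor kinases and arrestins, and guides the homing and retention of hematopoietic stem cells and of B cell precursors in the marrow. The HLF part of the fusion supplies its DNA binding domain, a basic leucine zipper that recognizes TTACGTAA and the related TTATGTAA.

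CXCR4 (ENSG00000121966.8 in GENCODE release 44) lies at chr2:136114349-136119177 of hg38, on the minus strand, with a length of 4829 bases. Higher coordinates are therefore upstream of the gene. All 7 annotated transcripts start in the bin chr2:136115001-136120000, and the start of CXCR4-201, at position 136118149, is the zero of all distances below. The 250 bases before that start are shown because the promoter bin is where a promoter contact would have been listed (chr2:136118150-136118399, GRCh38.p14, minus strand, RefSeq). They lie in an intron of the transcript that starts farthest upstream. Capitals mark GC boxes (GGGCGG or its reverse complement CCGCCC) and the TATA box letters TATAAA in the gene's direction, and 2 of the GC boxes overlap by 1 base.

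CXCR4 promoter: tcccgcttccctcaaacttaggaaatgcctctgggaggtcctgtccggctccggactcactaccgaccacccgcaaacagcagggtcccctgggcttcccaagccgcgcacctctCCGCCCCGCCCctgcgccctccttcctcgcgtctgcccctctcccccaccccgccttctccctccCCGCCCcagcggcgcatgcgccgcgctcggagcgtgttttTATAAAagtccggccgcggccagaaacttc

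This promoter held 3 GC boxes and 1 TATAAA. Of 35116 RefSeq promoter windows of the same length, 42.6% held a GC box on either strand and 6.8% held TATAAA in the gene's direction. Neither TTACGTAA nor TTATGTAA occurred on either strand of these 250 bases or anywhere else in the 5-kb start bin, and 0.94% of the promoter windows held one of them. That says only that these letters are not in this window.

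The 25 anchor bins within 100 kb of CXCR4, that is, bins used by at least 1 listed interaction, held 7 exact matches to the HLF motif, all of the form TTATGTAA. The 7 matches are shown with 20 bases on each side, read on the strand where the motif is TTATGTAA (capitals), because they are the places in these bins that carry the letters known for the HLF domain. Each is named by its position in hg38.

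chr2:136056552-136056599, minus strand: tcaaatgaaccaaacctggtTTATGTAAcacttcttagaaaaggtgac
chr2:136059269-136059316, minus strand: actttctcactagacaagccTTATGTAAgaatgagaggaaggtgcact
chr2:136113421-136113468, minus strand: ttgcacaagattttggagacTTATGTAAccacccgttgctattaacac
chr2:136156745-136156792, plus strand: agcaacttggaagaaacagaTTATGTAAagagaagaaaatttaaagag
chr2:136207789-136207836, minus strand: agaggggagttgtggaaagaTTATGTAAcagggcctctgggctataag
chr2:136214460-136214507, minus strand: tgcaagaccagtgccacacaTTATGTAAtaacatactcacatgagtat
chr2:136216222-136216269, minus strand: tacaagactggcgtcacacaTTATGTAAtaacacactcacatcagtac

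The first 2 share 1 bin on the downstream side, 61.6 and 58.9 kb from the start. The third lies 908 bases past the annotated end of CXCR4, outside its exons. The other 4 lie upstream in intergenic sequence, at 38.6, 89.7, 96.3 and 98.1 kb. The last 2 resemble each other beyond the motif, with 32 of their 40 flanking bases the same, whereas any other pair of the 7 shared at most 15.

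The contact count of an interaction is the number of read pairs that join its 2 bins. The 74 interactions held 2758 contact counts of 1268490 in the whole list (0.217%). Their contact counts ran from 14 to 284 with a median of 30.5, beside a median of 24 over the list. The distance between bins ran from 50 to 2175 kb with a median of 192.5 kb, beside 255 kb over the list, and the list could hold no interaction under 50 kb. Contact counts fall with distance, so each count was also set against the listed interactions at exactly the same distance. The median CXCR4 interaction had 1.27 times the median count at its distance, and 20 of the 74 (27%) lay above the 90th percentile there, beside 9.79% of all listed interactions. Another 20 of the 74 (27%) lay under the median for their distance, beside 47.8% of the list.

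**Figure D1:**
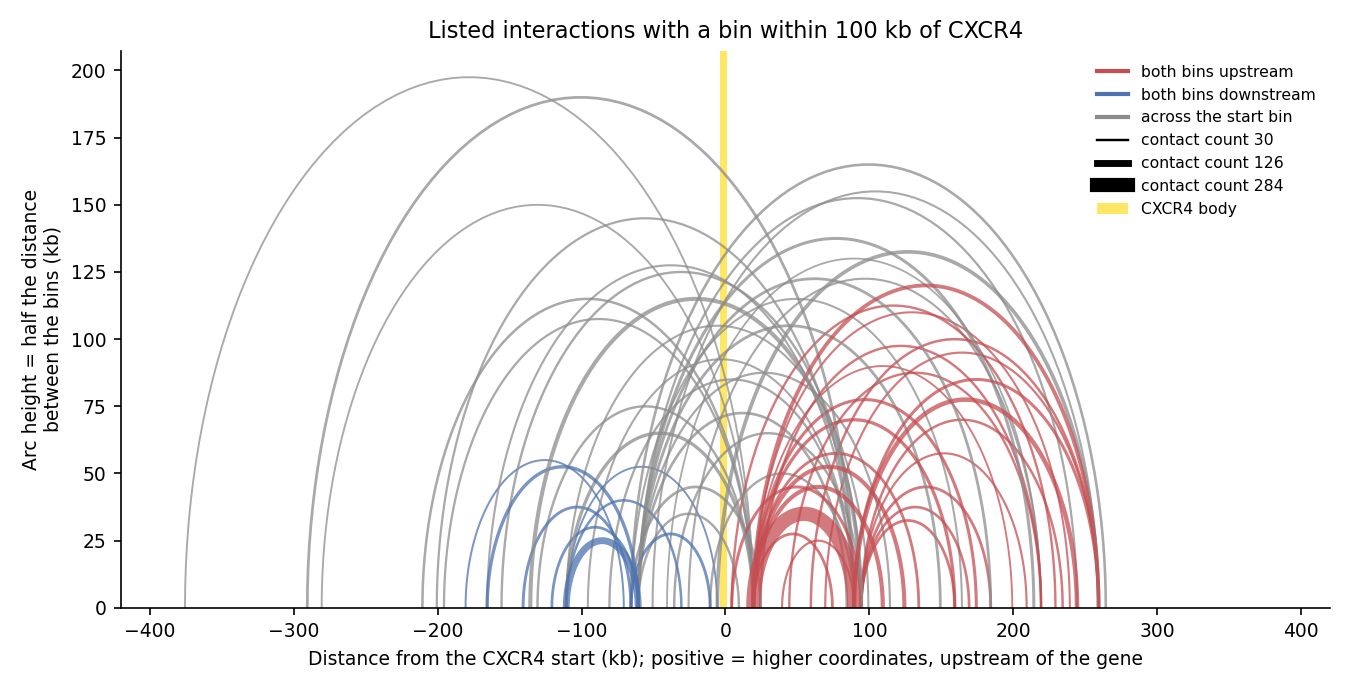
Interactions of the CXCR4 region as arcs between the centers of their 2 bins; the x axis is the distance from the CXCR4 start in kb (positive is upstream), arcs rise with the distance between the bins, line width rises with the contact count, and 62 of the 74 interactions lie within the 420 kb shown on each side. The widest arc, with a contact count of 284, joins 2 bins upstream of the gene, and the widest on the downstream side has a count of 126.

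The strongest contact of the region joined chr2:136135001-136140000 and chr2:136205001-136210000, the pair named in the choice of the region. These bins begin 16.9 and 86.9 kb upstream of the CXCR4 start, are intergenic and lie 70 kb apart. Their contact count was 284, with an exact Poisson 95% interval of 252 to 319 that covers counting error only. The listed p-value was 3.5e-285 and the q-value 1.43e-280. Since this pair was chosen with its values known, its rank describes it and supports nothing. Of 973 listed interactions at 70 kb it had the highest contact count, at 10.9 times their median of 26 and 1.91 times the next highest, 149. Over the whole list, 4 interactions had a higher contact count, and the highest was 615.

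This pair was part of a merged group, in which FitHiChIP joins nearby significant bin pairs and lists only representatives. The group covered chr2:136115001-136140000 on one side and chr2:136205001-136220000 on the other, or 5 by 3 bins. Of its 15 bin pairs 60% were significant, which is 9, and their contact counts summed to 750. Only 2 of the 9 were listed. The other listed pair joined chr2:136120001-136125000, the first bin upstream of the start bin, with chr2:136210001-136215000, at a contact count of 43 (interval 31.1 to 57.9). The 7 unlisted pairs therefore shared the remaining 423 contact counts, a mean of 60.4. The outer edge of the group on the gene's side is the CXCR4 start bin itself. Neither listed pair used that bin, so some pair among the 7 unlisted ones did. The list does not say which.

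No listed interaction had the CXCR4 start bin as one of its representative bins (0 of 74). Over 19970 protein-coding genes, 26.6% had a transcript start in an anchor bin. The 2 lines of the merged group above were the only ones whose merged range reached the start bin. The strongest partner bin, chr2:136135001-136140000, lies 20 kb from the start bin, below the shortest distance the list could hold, so a contact between them could not have been listed. The far bin of the pair lies 90 kb from the start bin, a distance at which 851 interactions were listed. The authors called interactions with their peaks as reference. Whether the start bin, or the bins with many interactions described below, held a peak was not examined here.

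Bins beside the start bin did carry contacts. With bins up to 10 kb from any CXCR4 start counted, 7 interactions were listed. The paper used a window of 10 kb on each side of gene starts, with expression data, to define putative promoter anchors. The start bin alone is therefore a stricter measure than the paper's. The bin with the 3′ end of the gene, chr2:136110001-136115000, contacted chr2:136375001-136380000 with a count of 57 (interval 43.2 to 73.9), and chr2:136005001-136010000 with 18. The first of these spans 265 kb, where it was the sixth highest of 296 listed interactions. The second spans 105 kb, where it ranked 547 of 686, at 0.72 times the median of 25. The bin with the 3′ end also holds the TTATGTAA past the end of CXCR4 shown above. One bin further downstream, chr2:136105001-136110000 contacted chr2:136050001-136055000 with 40 and chr2:136205001-136210000 with 29. On the upstream side, besides the pair with a count of 43, chr2:136120001-136125000 contacted chr2:136345001-136350000 with 29, and chr2:136125001-136130000 contacted chr2:136055001-136060000 with 30. Bins on both sides of the start bin thus had listed contacts, and in both directions.

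Most of the region's contacts met at a few bins. Of 74 interactions, 64 had at least 1 bin with 9 or more interactions (86.5%), beside 38.2% of the whole list. The region had 7 such bins among its 71 anchors (9.86%), beside 2.75% of all 53535 anchor bins. The choice of a region known for its contacts bears on both counts, and nothing is read from them. A single interaction was held by 43 of the region's 71 anchors (60.6%), beside 78% of all anchors, and the same choice bears on this share. The edge of the window fell among these bins. Just inside it, the bins at chr2:136020001-136025000 and chr2:136215001-136220000 had 1 interaction each, both with a count of 22, and just outside it, chr2:136005001-136010000 had 9 and chr2:136225001-136230000 had 1, with a count of 67.

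The bin with the most interactions was chr2:136135001-136140000, centered 19.4 kb upstream of the CXCR4 start. It had 21 interactions, which ranked 93 among the 53535 anchors, and took part in 28.4% of the region's interactions. Of its partners 11 lay on the downstream side of CXCR4 and 10 upstream. Apart from the pair at 284, its 20 other contact counts ran from 15 to 67 with a median of 30.5. The upstream partners drew the higher counts, with 67 at chr2:136225001-136230000, 65 at chr2:136240001-136245000, 60 at chr2:136375001-136380000 and 48 at chr2:136275001-136280000. Across the gene, its highest count was 49, with chr2:136005001-136010000. The upstream partners lay 55 to 240 kb from the bin and those across the gene 130 to 1890 kb. Relative to the median at the same distance, the upstream counts apart from 284 were 0.72 to 2.6 times. Those across the gene were 0.682 to 1.88 times. This bin held no exact HLF motif on either strand. It held 1 place with at most 1 mismatch to TTACGTAA, and 64.3% of all anchors held such a place.

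The partner of the strongest pair, chr2:136205001-136210000, and the bin next to it, chr2:136210001-136215000, had 11 interactions each. The first held the TTATGTAA at 89.7 kb and the second the one at 96.3 kb. Of the listed partners of the first bin 8 had lower coordinates, and of the second bin 4 did. In 10 of these 22 lines the merged range held both bins, so which of them was listed depended on the representative chosen. The first had its second highest count, 75 (interval 59 to 94), with chr2:136360001-136365000, in a merged group of 10 bin pairs with 8 significant and a summed contact count of 307. The second had its highest count, 65 (interval 50.2 to 82.8), with a bin 230 kb away across CXCR4, where only 2 of 334 listed interactions at that distance had more.

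On the downstream side, chr2:136055001-136060000 had 11 interactions and the bin before it, chr2:136050001-136055000, had 7. The first carries 2 of the TTATGTAA matches shown above. Its highest count was 126 (interval 105 to 150), with chr2:136005001-136010000, 50 kb away, where 6 of 1393 listed interactions had more. Of its 11 partners 7 lay across the CXCR4 start, at counts of 25 to 43. Its most distant partner, in the body of RAB3GAP1, lay 985 kb away with a count of 39, the third highest of 42 at that distance.

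The other bins with many interactions lay outside the window. The bin chr2:136375001-136380000, centered 259.4 kb upstream, had 15 interactions, and 14 of its partners had lower coordinates, toward CXCR4. The bin chr2:136335001-136340000, at 219.4 kb, had 9, and all 9 partners had lower coordinates. The number of interactions that spanned a bin dropped from 21 just before the bin at 259.4 kb to 7 at that bin and just after it. Few contacts of the region thus extended farther upstream than this bin. On the downstream side the spanning number declined in smaller steps over a longer stretch.

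The 7 bins also contacted each other. They form 19 pairs that lie 50 to 400 kb apart, and 14 of these had a listed interaction between the 2 bins or bins next to them (73.7%), beside 53.5% of 810 such pairs over all bins with at least 9 interactions. With the exact bins only, 5 of the 19 were listed (26.3%), beside 18.8%. Those of the 7 bins that lie outside the window were included only because each had a listed contact with a bin inside it. The 810 pairs carried no such condition, so nothing is read from the difference in either share. Adjacent bins can share 1 listed interaction in this count, as the pair at 284 does for the bins at 89.4 and 94.4 kb. The bins at 19.4, 89.4 and 259.4 kb upstream were joined directly to each other. The first had a count of 284 with the second and 60 with the last, and the second and last had 43.

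Relative to the start bin, 27 interactions lay wholly upstream, 12 wholly downstream and 35 reached across it. The upstream contacts had a median count of 35, the downstream ones 36 and those across the gene 29, with highest counts of 284, 126 and 65. These counts were not adjusted for the distance between bins. Together with 16 interactions whose bins both lay outside the window, 51 interactions spanned the CXCR4 start bin, at counts of 12 to 65. Over protein-coding genes the median number spanning the start was 7, and 25 genes had more than CXCR4. The highest number spanning any bin in the surrounding 200 bins was 54, reached in 4 bins on the upstream side from 64.4 to 79.4 kb.

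Only 12 of the 74 interactions had both bins within 100 kb of CXCR4, and 62 led out of it. Of the 74, 7 exceeded 1 Mb (9.46%), beside 13.7% of the list, at counts of 14 to 31. The longest, 2175 kb, joined chr2:136210001-136215000 and chr2:138385001-138390000 with a count of 21. Of the other long contacts, 2 led from the bin at 19.4 kb into MGAT5, a glycosyltransferase gene, at counts of 31 and 19. A contact of chr2:136205001-136210000 with the body of THSD7B had 31.

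Some partner bins held annotated gene starts. The bin at 19.4 kb contacted the start bins of UBXN4, which acts in protein degradation at the endoplasmic reticulum, of LCT, the intestinal lactase, and of the kinase gene MAP3K19. Their counts were 18, 18 and 20, each under the median of 21 to 23 at the same distances. The LCT bin held both TTACGTAA and TTATGTAA. Starts of other kinds of gene included those of the pseudogenes HNRNPKP2 and UBBP1, at counts of 35 and 24, and those of ENSG00000237262 and ENSG00000279024, at 16 and 25. The HNRNPKP2 contact was 1.46 times the median at its distance, and the other 6 of these contacts were 0.696 to 1.02 times theirs.

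The share of anchors with the HLF motif was lower than in the whole list, within the counting interval. Of 71 anchors of the 74 interactions, 16 held TTACGTAA or TTATGTAA (22.5%, Wilson 95% interval 14.4 to 33.5), beside 31.5% of all anchors. Within 100 kb of CXCR4 it was 6 of 25 (24%). Of the 7 bins with at least 9 interactions 4 held the motif (57.1%, interval 25 to 84.2), beside 64.8% of the 1470 such bins in the list. The 3 without it were the bins at 19.4 and 259.4 kb and chr2:136005001-136010000. The palindrome TTACGTAA itself was in 2 of the 71 anchors, both at LCT. The median G+C content was 42.3% in the region's anchors and 41.1% in all, and 54% in the CXCR4 start bin.

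Merged groups were common here. Of the 74 lines 21 belonged to a group of more than 1 bin pair (28.4%), in 18 groups, beside 7.69% of the list. The largest rectangle had 18 bin pairs with 7 significant and a summed contact count of 166. It joined chr2:136045001-136060000 downstream with chr2:136360001-136390000 upstream, across CXCR4. Its listed pairs used the bins at 60.6 and 65.6 kb downstream and those at 244.4 and 264.4 kb upstream.

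Counted over the gene body and 100 kb on each side, CXCR4 ranked 55 among 19970 protein-coding genes, whose median was 6 interactions. Longer genes have wider windows, and windows of neighbors overlap. With 100 kb on each side of the gene start instead, it ranked 9, and by summed contact counts it ranked 19. Among 5114 genes with bodies under 10 kb none had more, and the next was SPRY1 with 70. Of 14651 genes whose starts were in no anchor bin, 1 had more interactions within 100 kb of its start, SMIM2 with 80. CXCR4 thus combined many contacts nearby with no representative bin at its own start. Its start bin nonetheless lay at the edge of the merged range of 1 group. These genes were picked out after their values were seen.

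With each locus counted once, the genes nearest to CXCR4 in number of interactions, over this 1 merged library, were SBF2 with 77, GADL1 with 76 and NAV2 with 75 above it, and FRMD4A with 72, SND1 with 72 and BACH2 with 71 below it. All 6 have bodies of at least 168465 bases. Their highest single contact count ran from 45 for NAV2 to 115 for SND1, beside 284 for CXCR4. The 284 belongs to the pair named in the choice of the region, so nothing is read from this difference. The next highest count of the CXCR4 region was 126.

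The other 22 chemokine receptor genes on the list examined had 1 to 33 interactions within 100 kb. CCR8, a receptor of T helper and regulatory T cells, and XCR1, a receptor of cross-presenting dendritic cells, had 33 each, and CX3CR1, the fractalkine receptor, had 32. These counts include shared contacts, since several of the genes lie side by side on chromosome 3. Of all 23 receptors 8 had a start in an anchor bin (34.8%), near the 26.6% of protein-coding genes. The other known CXCL12 receptor, ACKR3, had 2 interactions nearby and none at its start. CXCR5, which guides B cells to follicles, had 19, with 1 at its start.

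Of the 31 genes of the CXCL12-CXCR4 pathway 13 had a start in an anchor bin (41.9%), beside 26.6% of protein-coding genes. The list's median was 8 interactions within 100 kb, beside 6. Without CXCR4, whose region was chosen for its contacts, the median was 6.5. The ligand gene CXCL12 had 3 and no contact at its start. Among the transducers, GNAI3 had 35 and the dock protein gene DOCK2, a Rac activator of lymphocytes, had 42, whereas GNAI2 had 0. Of the kinases that desensitize the receptor, GRK2 had 16 with 4 at its starts, GRK3 had 8 with 6 at its starts, and GRK6 had 3 with none. STAT3, a signal transducer, had 43, and PTK2, the focal adhesion kinase, had 15 at its starts. ITGA4, the integrin subunit that binds VCAM1 in the marrow, had 22, with 2 at its starts and a contact count of 235 for the stronger of these. Genes of the pathway thus ran from no listed contact to many, and CXCR4 had the most within 100 kb.

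Of the 11 genes of the CXCR4 neighborhood examined, 6 lie on the downstream side of CXCR4 and 4 on the upstream side. Downstream, MCM6, a subunit of the replicative helicase, had 30, ZRANB3 26, R3HDM1 25, LCT 23, UBXN4 15 and RAB3GAP1 12. On the upstream side THSD7B had 6, NXPH2 had 1, and HNMT, the histamine methyltransferase, and SPOPL had 0. HNMT, SPOPL and NXPH2 begin at positions 137964020, 138501770 and 138669157, farther from CXCR4 than any of the 6 downstream genes. Of the 11 genes 5 had a start in an anchor bin (45.5%), beside the 26.6% given above.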

How the data were processed

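The labels describe 2 HiChIP replicates of HAL-01 cells with wild-type TCF3 knocked out. The authors trimmed reads with Trim Galore 0.6.6, merged both replicates, mapped them to hg38 with BWA and left out the removal of duplicates. They called peaks with MACS2 and used these as reference when calling interactions with FitHiChIP. The interactions were of 50 kb to 3 Mb between 5-kb bins (q-value under 0.01, nearby contacts merged). The deposited contact counts are whole, not normalized, and can include PCR copies, so the Poisson and Wilson 95% intervals cover counting error only. The deposited p-value and q-value come from the FitHiChIP background. The deposited fraction tells which part of a merged rectangle was significant. Multiplied by the number of bin pairs in the rectangle it was whole (within 0.001) for all 3787 lines of such groups. A sumCC count adds the contact counts of a group.

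Coordinates were made 1-based, and 0 bins lay past a chromosome end of hg38. Genes came from GENCODE release 44, promoters from RefSeq (GRCh38.p14), with Python 3.11. Motifs were exact matches on both strands. The scripts were tested on simulated data. No test was run. The members, gene lists and named genes (CXCR4, genes with starts in its anchors, list genes, the 3 nearest in rank on each side) were chosen with earlier results of these data known. Alternatives were the window, the q-value, the contact count, merged ranges, distance classes and motif forms. Results for some genes with starts in the region's anchors are not reported here.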

Additional observations from a re-analysis of the deposited data

How the results depend on the processing

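The 74 interactions became 37 with a window of 50 kb. Under the other 7 settings tried (a window of 200 kb, bins wholly inside, a q-value under 0.001 or 1e-05, a contact count of at least 20, merged ranges, and without the bin at 19.4 kb) the number ran from 53 to 89. Contacts of the CXCR4 start rose from 0 to 7 with bins within 10 kb and to 2 with merged ranges. The pair at 284 moved from rank 1 to 3 of 4786 with distances within 10 kb, and to 3 of 973 by the summed count. It kept rank 1 by p-value. The motif share of 22.5% was 2.82% with TTACGTAA alone (2.32% of all anchors), 62% with at most 1 mismatch (64.3% of all anchors), 57.1% in bins with at least 9 interactions and 24% in the window. The gene rank of 55 was 19 by summed contact counts, 9 around gene starts, 1 among genes under 10 kb, and 56 without the merged group of the strongest pair. The last 2 motif sets, the last 3 gene ranks and the removal of the bin at 19.4 kb were chosen after seeing the data. Leaving out a replicate was not run, because the list merges both. No paired analysis was possible because the columns carry no replicate number. With 2 merged replicates and duplicates kept, an interval from contact counts is a lower limit of the error, and weak interactions near 14 counts are the least certain. Contacts under 50 kb and bin pairs that were not listed were not analysed here.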
